A study of Mus musculus with 11 samples.

Results

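Hox genes encode homeodomain transcription factors that mark position along the body axis of the embryo. In mammals they lie in 4 clusters, and genes that hold the same place in different clusters are paralogues with the same number. Low-numbered paralogues are generally expressed from further forward in the body than high-numbered ones, and cultured mesenchymal cells often keep part of the Hox pattern of the site they came from. The genes described here are all those whose probe sets on the Affymetrix mouse genome array carry a single symbol made of Hox, a cluster letter and a number. There were 33 of them among 18193 named genes: 9 in cluster a on chromosome 6, 9 in cluster b on chromosome 11, 7 in cluster c on chromosome 15 and 8 in cluster d on chromosome 2. Where a gene had several probe sets, the one brightest on average across the 11 arrays was read. Hox genes with no single-symbol probe set were not analysed here.

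The study profiled mouse cell lines made from precursors of the interstitial cells of Cajal, or ICC, which pace the contractions of gut muscle, beside the stomach muscle they were taken from. The tsA58 line came from H-2Kb-tsA58 mice, whose transgene places a heat-sensitive SV40 large T antigen under the interferon-responsive H-2Kb promoter, and it was cultured at 39.5 °C with no interferon-gamma (3 arrays). The C57BL/6J line came from wild-type C57BL/6J mice and was cultured at 37 °C with 5% chick embryo extract (3 arrays). Both were kept in NeuroCult proliferation medium for neural stem cells. The tissues were the gastric tunica muscularis of H-2Kb-tsA58 mice (3 arrays) and of C57BL/6J mice (2 arrays), and the transgene is present in the tsA58 tissue as well as in its line. Each strain gave 1 line, so strain, line, transgene, temperature and extract cannot be told apart. Ages are not given in the sources used here. Titles call the replicates biological, but nothing says that they were separate cultures or animals, so p-values measure only the spread between these arrays, which may be technical.

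Values are log2 intensities, and array medians lay between 4.66 and 4.84. A level near that median cannot be told from background, so a change that ends there may be understated. Replicates correlated at 0.956 to 0.988 in the tsA58 line and at 0.964 to 0.991 in the other groups, and tsA58 line replicate 3 was the lowest of its group for several Hox genes named below. Its marker means were the highest of the tsA58 line arrays for smooth muscle (range 5.14 to 6.73) and mesothelium (range 7.68 to 10.76). The part of this array's departure in the Hox differences was not tested. The actin controls, 3' minus 5' signal on the log2 scale, gave 0.47 ± 0.40 for the tsA58 line, 1.02 ± 0.02 for the C57BL/6J line, 0.44 ± 0.03 for tsA58 tissue and 0.93 ± 0.12 for C57BL/6J tissue (SD), so it moved with strain, and its part in the strain comparisons cannot be told apart from strain. Spiked hybridisation controls had mean levels of 8.14 (tsA58 line), 9.63 (C57BL/6J line), 8.74 (tsA58 tissue) and 10.86 (C57BL/6J tissue). Within tsA58 tissue they ranged from 7.52 to 9.66, so centring on them adds spread between those arrays. Spiked poly-A controls averaged 4.46 to 4.77 per array in the tsA58 line and 4.90 to 5.11 in the C57BL/6J line. They averaged 5.23, 6.15 and 8.22 in tsA58 tissue, and 8.52 and 8.04 in C57BL/6J tissue. These controls were higher in tissue in both strains, so their part cannot be told apart from line against tissue. Smooth muscle markers averaged 12.63 to 12.96 per array in tsA58 tissue and 11.44 to 11.56 in C57BL/6J tissue. In both lines Kit, the receptor that marks mature ICC, was near or below the array median, as were Cacna1h and 4 of 7 smooth muscle markers. Ano1, another ICC marker, stood above it in both, at 6.29 to 7.82 (tsA58 line) and 6.02 to 6.56 (C57BL/6J line). Exocrine pancreas markers ranged over the arrays from 4.70 to 9.56 in tsA58 tissue and from 5.52 to 10.53 in C57BL/6J tissue, and their part in the tissue values was not tested. A tissue value mixes cell types, and fewer cells of a type cannot be told apart from less RNA per cell.

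In stomach muscle of both strains, about as large a share of the low- and middle-numbered Hox genes stood well above the array median as of all genes, and few high-numbered ones did. A gene is called raised in a group where it stood more than 1 log2 unit above the array median on every array of that group. By that measure the number of raised Hox genes among the 33 was 12 for the tsA58 line, 11 for the C57BL/6J line, 12 for tsA58 tissue and 12 for C57BL/6J tissue. Of all 18193 named genes, 48.6% were raised in the tsA58 line, 48.9% in the line of C57BL/6J mice, 51.5% in tsA58 tissue and 50.3% in C57BL/6J tissue. Of the 7 genes of paralogues 1 to 3, 2 were raised in the tsA58 line, 3 in the line of C57BL/6J mice, 4 in tsA58 tissue and 4 in C57BL/6J tissue. Of the 12 genes of paralogues 4 to 8, 6 were raised in each line, 7 in tsA58 tissue and 6 in C57BL/6J tissue. Among paralogues 9 to 13, 4 of 14 genes were raised in the tsA58 line (Hoxa9, Hoxb13, Hoxc9 and Hoxc13), 2 in the C57BL/6J line (Hoxa9 and Hoxc9), 1 in tsA58 tissue (Hoxc9) and 2 in C57BL/6J tissue (Hoxa9 and Hoxc9). For Hoxa9 this rests on the probe set used. A second Hoxa9 probe set, described below, exceeded the array median in the tsA58 line only. Cluster d had 1 raised gene, Hoxd8 in the tsA58 line, and none in the other groups.

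A set of 6 genes was raised in all 4 groups: Hoxa7, Hoxb2, Hoxb3, Hoxb4, Hoxb6 and Hoxc9, of which 4 are neighbours or near neighbours in cluster b. Hoxc9, which patterns the thoracic axis, was the steadiest of the tested genes, with all 11 arrays between 6.21 and 6.78. The 3 arrays of the tsA58 line all read 6.39, and whether so flat a probe set follows its transcript was not tested. Another 4 genes were raised in the tsA58 line only: Hoxb13, Hoxc6, Hoxc13 and Hoxd8. At the other end, 16 genes were raised in no group. In the probe sets used, 12 of these lay below the array median on all 11 arrays, with single values from 2.53 to 4.63: Hoxa10, Hoxa11, Hoxa13, Hoxb1, Hoxb7, Hoxc5, Hoxc8, Hoxd1, Hoxd10, Hoxd11, Hoxd12 and Hoxd13. The remaining 4 were Hoxb9, Hoxc10, Hoxd3 and Hoxd9.

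**Figure D1:**
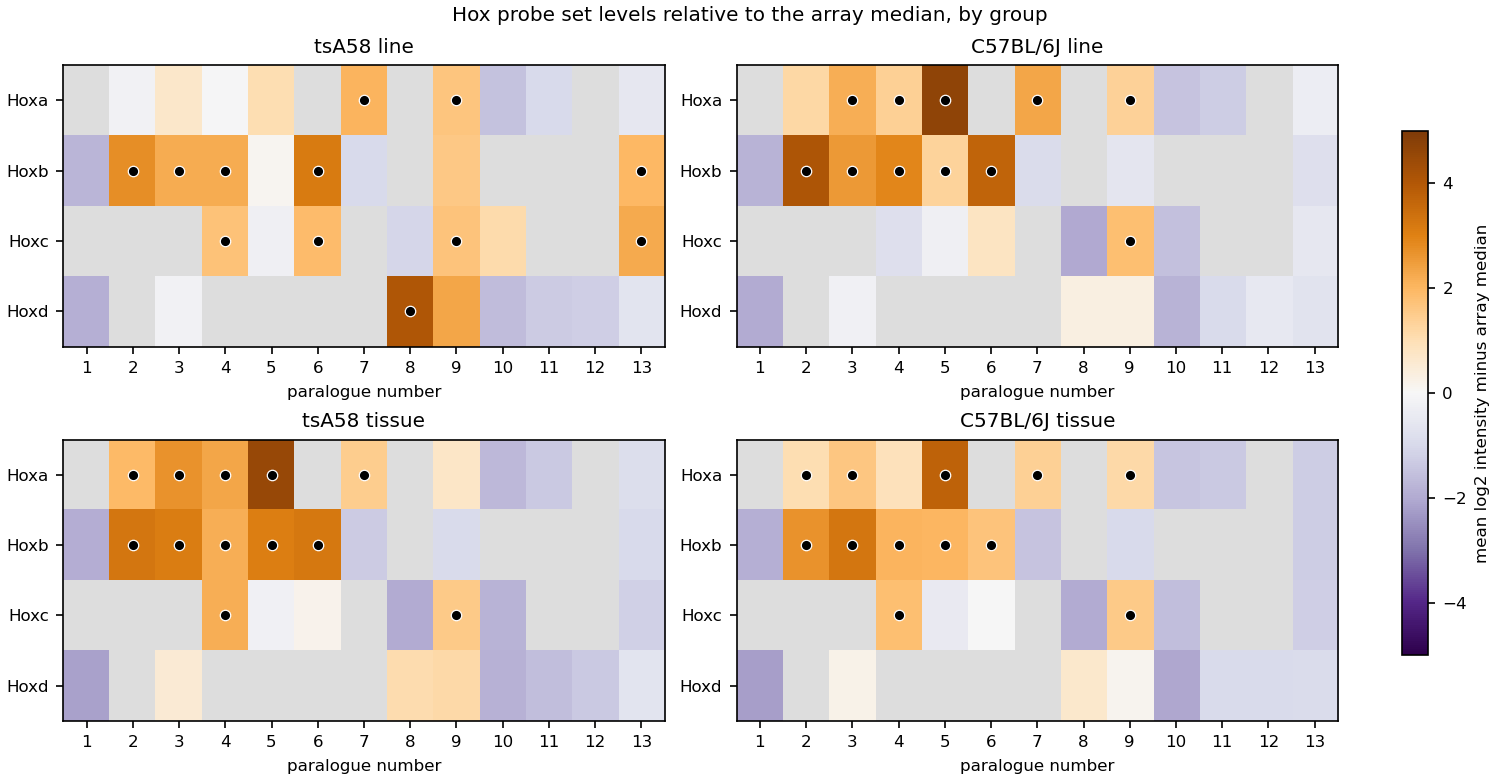
Mean log2 intensity minus the array median (colour) for the 33 Hox genes, by cluster (rows) and paralogue number (columns), in each of the 4 groups. Black dots mark raised genes, more than 1 log2 unit above the median on every array of the group, and grey cells hold no gene analysed here. Dots lie mostly at paralogue numbers 2 to 9, and dots at number 13 appear in the tsA58 line only.

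Differences were fitted with limma in 1 model with 4 group means, with Benjamini-Hochberg adjustment of p over 13285 genes, the 73% of named genes that exceeded the array median on at least 2 arrays. A gene was called at an adjusted p below 0.05 and a change of at least 2-fold. The filter kept 21 Hox genes and left out the 12 listed above. Hoxb9, Hoxb13, Hoxc10 and Hoxc13 exceeded the median on 3 arrays, those of the tsA58 line, and so passed through the group where they were high. For that reason counts are also given over all 33 genes from a fit with no filter. Of the 21, 15 were called in at least 1 comparison, and Hoxa7, Hoxa9, Hoxb3, Hoxb4, Hoxc9 and Hoxd3 were called in none.

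The tsA58 line was set against the stomach muscle of its strain. That tissue mixes cell types, so a difference does not show whether the line kept the Hox pattern of the cells it was made from. Hoxa2 to Hoxa5 and Hoxb5 were lower in the line, while Hoxb9, Hoxb13, Hoxc6, Hoxc10, Hoxc13 and Hoxd8 were higher. That made 11 of 21 genes called, where 31.7% of all tested genes were called (12.8% higher and 18.9% lower). Over all 33 genes with no filter, 11 were called (6 higher and 5 lower), beside 23.3% of all genes (9.27% higher and 14% lower). The arrays of line and tissue did not overlap for 15 of the 21 genes and for 51.9% of all tested genes. The called genes sorted by number: paralogues 1 to 3 had 2 lower and 0 higher of 7, paralogues 4 to 8 had 3 lower and 2 higher of 12, and paralogues 9 to 13 had 4 higher and 0 lower of 14. Across the 33 genes Spearman's rank correlation between paralogue number and log2 fold change was 0.61, as a description over genes that share the same 6 arrays. Of paralogues 9 to 13 only 1 of 14 was raised in tsA58 tissue, so most had little room to be called lower. The sorting and the correlation are partly fixed by that floor, with or without the filter. The median change was 0.11 over the 33 genes and 0.03 over all 18193.

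Hoxa5, which patterns the mesenchyme of the lung and stomach in the mouse, stood at 5.08, 5.88 and 6.18 in the tsA58 line, against 9.22, 8.89 and 9.73 in tsA58 tissue. The groups did not overlap, and all 3 arrays of the line were below every other array of the study. The difference was -3.57 ± 0.30 (SE, adjusted p = 4.95e-06), a drop to 0.0843 of the tissue intensity. In the C57BL/6J line the same gene stood at 9.42, 9.21 and 9.55, and in C57BL/6J tissue at 8.67 and 8.43. The tsA58 line was lower than the C57BL/6J line by -3.68 ± 0.30 (adjusted p = 2.64e-05), while the C57BL/6J line and its tissue differed by 0.84 ± 0.33, which missed the threshold (adjusted p = 0.0582).

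The start regions of Hoxa5 and of 3 other genes that set the lines apart are shown because they stand for the genes that were lower or higher in 1 line, and they were chosen after the values were seen. Each is the RefSeq promoter window of GRCm38.p6, 250 bases before to 50 bases after the gene's start, on the gene's strand. They lie at chr6:52204538-52204837 on the minus strand (Hoxa5) and, on the plus strand, at chr15:103034145-103034444 (Hoxc4), chr2:74704365-74704664 (Hoxd8) and chr2:74697513-74697812 (Hoxd9). Capitals mark CCAAT (the CCAAT box) and GGGCGG (the GC box) on either strand.
Hoxa5: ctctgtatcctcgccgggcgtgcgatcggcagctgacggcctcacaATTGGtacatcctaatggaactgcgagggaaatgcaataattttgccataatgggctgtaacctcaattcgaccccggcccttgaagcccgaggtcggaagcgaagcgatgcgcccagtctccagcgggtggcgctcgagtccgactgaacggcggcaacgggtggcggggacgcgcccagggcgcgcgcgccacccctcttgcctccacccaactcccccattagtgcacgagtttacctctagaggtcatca
Hoxc4: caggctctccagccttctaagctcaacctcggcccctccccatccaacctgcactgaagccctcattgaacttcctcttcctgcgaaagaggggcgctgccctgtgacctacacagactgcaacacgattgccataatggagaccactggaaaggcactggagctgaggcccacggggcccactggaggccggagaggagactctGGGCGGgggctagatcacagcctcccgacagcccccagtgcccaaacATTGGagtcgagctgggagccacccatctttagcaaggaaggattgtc
Hoxd8: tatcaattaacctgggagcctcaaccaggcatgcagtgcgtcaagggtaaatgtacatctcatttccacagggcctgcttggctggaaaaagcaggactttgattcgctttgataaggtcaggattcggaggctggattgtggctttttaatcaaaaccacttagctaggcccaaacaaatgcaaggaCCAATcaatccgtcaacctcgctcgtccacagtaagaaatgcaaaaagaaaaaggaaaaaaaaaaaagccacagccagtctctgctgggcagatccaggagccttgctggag
Hoxd9: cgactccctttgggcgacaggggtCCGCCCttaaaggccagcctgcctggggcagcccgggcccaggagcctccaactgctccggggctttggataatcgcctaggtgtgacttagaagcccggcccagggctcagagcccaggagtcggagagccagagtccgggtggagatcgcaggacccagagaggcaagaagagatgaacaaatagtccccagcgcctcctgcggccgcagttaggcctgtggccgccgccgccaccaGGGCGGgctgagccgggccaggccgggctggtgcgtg
A CCAAT match was found in the Hoxa5, Hoxc4 and Hoxd8 windows, 1 in each, and a GGGCGG match in the Hoxc4 window (1) and the Hoxd9 window (2). Of 32851 promoter windows of this length in the table, 37.4% held CCAAT and 35.7% held GGGCGG, and among the 19 Hox genes with a window 12 held CCAAT and 8 held GGGCGG. TGATNNAT, letters of the joint Pbx-Hox site, was in none of the 4 windows, in 3 of the 19 genes and in 8.85% of all windows. CG dinucleotides numbered 29 in the Hoxa5 window, 9 in Hoxc4, 6 in Hoxd8 and 20 in Hoxd9, with a median of 15 over Hox windows and 7 over all.

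The other genes at the forward end of cluster a fell with Hoxa5 in the tsA58 line. Hoxa2, a patterning gene of the hindbrain and pharyngeal arches, read 4.72, 4.25 and 4.57 in the tsA58 line, against 6.73, 6.23 and 7.15 in tsA58 tissue (-2.19 ± 0.30, adjusted p = 0.00019). The line's values lay around the array median. Hoxa3, needed for the pharyngeal glands, read 5.64, 4.87 and 5.57 in the line, against 8.16, 6.75 and 7.42 in tissue (-2.08 ± 0.34, adjusted p = 0.000621). Hoxa4, a patterning gene of the neck vertebrae, read 4.81, 3.91 and 5.19 in the line, against 7.64, 6.34 and 7.25 in tissue (-2.44 ± 0.37, adjusted p = 0.000364). No array of the line reached any array of its tissue for these 3 genes. When all probe sets of a gene were averaged, Hoxa3 changed by -0.63, under 2-fold, and with centring on the hybridisation controls its call was lost (-1.49, adjusted p = 0.067).

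Hoxb5, which acts in neural crest cells of the gut and in the shoulder region, was the only called gene of cluster b that was lower. It read 5.23, 5.22 and 3.86 in the tsA58 line, against 8.15, 7.01 and 8.35 in tsA58 tissue (-3.06 ± 0.42, adjusted p = 0.000182). The C57BL/6J line read 6.31, 5.74 and 6.02, and its tissue 6.75 and 6.96. The neighbours Hoxb3, Hoxb4 and Hoxb6 changed by -0.98 ± 0.28, -0.04 ± 0.20 and -0.16 ± 0.33 in the tsA58 line and were not called, so neither gene flanking Hoxb5 was called.

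The genes that were higher in the tsA58 line lie at middle and rear positions of clusters b, c and d. Hoxd8, a middle paralogue of the trunk, read 9.32, 9.82 and 7.03 in the tsA58 line, against 6.24, 5.61 and 5.60 in tsA58 tissue (2.91 ± 0.56, adjusted p = 0.00174). It read 5.04, 5.05 and 5.01 in the C57BL/6J line, and 5.56 and 5.42 in C57BL/6J tissue. All 3 arrays of the tsA58 line were above every other array, and replicate 3 was 2 log2 units or more below the other 2. Without replicate 3 the change from tissue was 3.75.

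Hoxb13, the rearmost gene of cluster b and a regulator of prostate and tail development, read 7.10, 7.04 and 5.87 in the tsA58 line, against 4.04, 3.76 and 3.46 in tsA58 tissue (2.92 ± 0.30, adjusted p = 2.59e-05). It stayed below the array median in the C57BL/6J line (3.86, 3.99 and 3.91) and in C57BL/6J tissue (3.47 and 3.67). Hoxb9, a patterning gene of the ribs, read 7.10, 6.65 and 5.11 in the tsA58 line, against 3.73, 3.91 and 3.73 in tsA58 tissue (2.50 ± 0.40, adjusted p = 0.000536), and without replicate 3 the change was 3.09. The C57BL/6J line read 4.15, 4.15 and 4.06, and its tissue averaged 3.85 ± 0.21 (SD, n = 2). Both genes were therefore detected above the array median in 1 of the 4 groups.

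In cluster c, Hoxc13, a regulator of hair and nail, read 6.33, 6.78 and 7.72 in the tsA58 line, against 3.49, 3.71 and 3.55 in tsA58 tissue (3.36 ± 0.31, adjusted p = 1.01e-05). Hoxc10, a patterning gene of the lumbar spine and hindlimb, read 5.69, 6.40 and 5.35 in the line, against 2.96, 3.08 and 2.83 in tissue (2.86 ± 0.25, adjusted p = 7.5e-06). The C57BL/6J line read 4.10, 4.34 and 4.09 for Hoxc13 and 3.36, 3.06 and 3.06 for Hoxc10, all below the array median. C57BL/6J tissue read 3.39 and 3.86 for Hoxc13, and 3.41 and 3.14 for Hoxc10. Replicate 3 was the highest array of the tsA58 line for Hoxc13 and the lowest for Hoxc10. Hoxc13 was the exception among genes called higher in that line than in tsA58 tissue or the C57BL/6J line. For Hoxb9, Hoxb13, Hoxc4, Hoxc6, Hoxd8 and Hoxd9 replicate 3 was also the lowest of the line.

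Hoxc6, a middle paralogue of the thoracic region, read 6.56, 6.76 and 6.43 in the tsA58 line, against 4.62, 5.17 and 4.97 in tsA58 tissue (1.66 ± 0.23, adjusted p = 0.000199). It read 5.87, 5.62 and 5.09 in the C57BL/6J line, and 4.76 and 4.92 in C57BL/6J tissue. The order tsA58 line, C57BL/6J line, tissues held for the group means, and the 2 tissues differed by 0.08 ± 0.26.

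**Figure D2:**
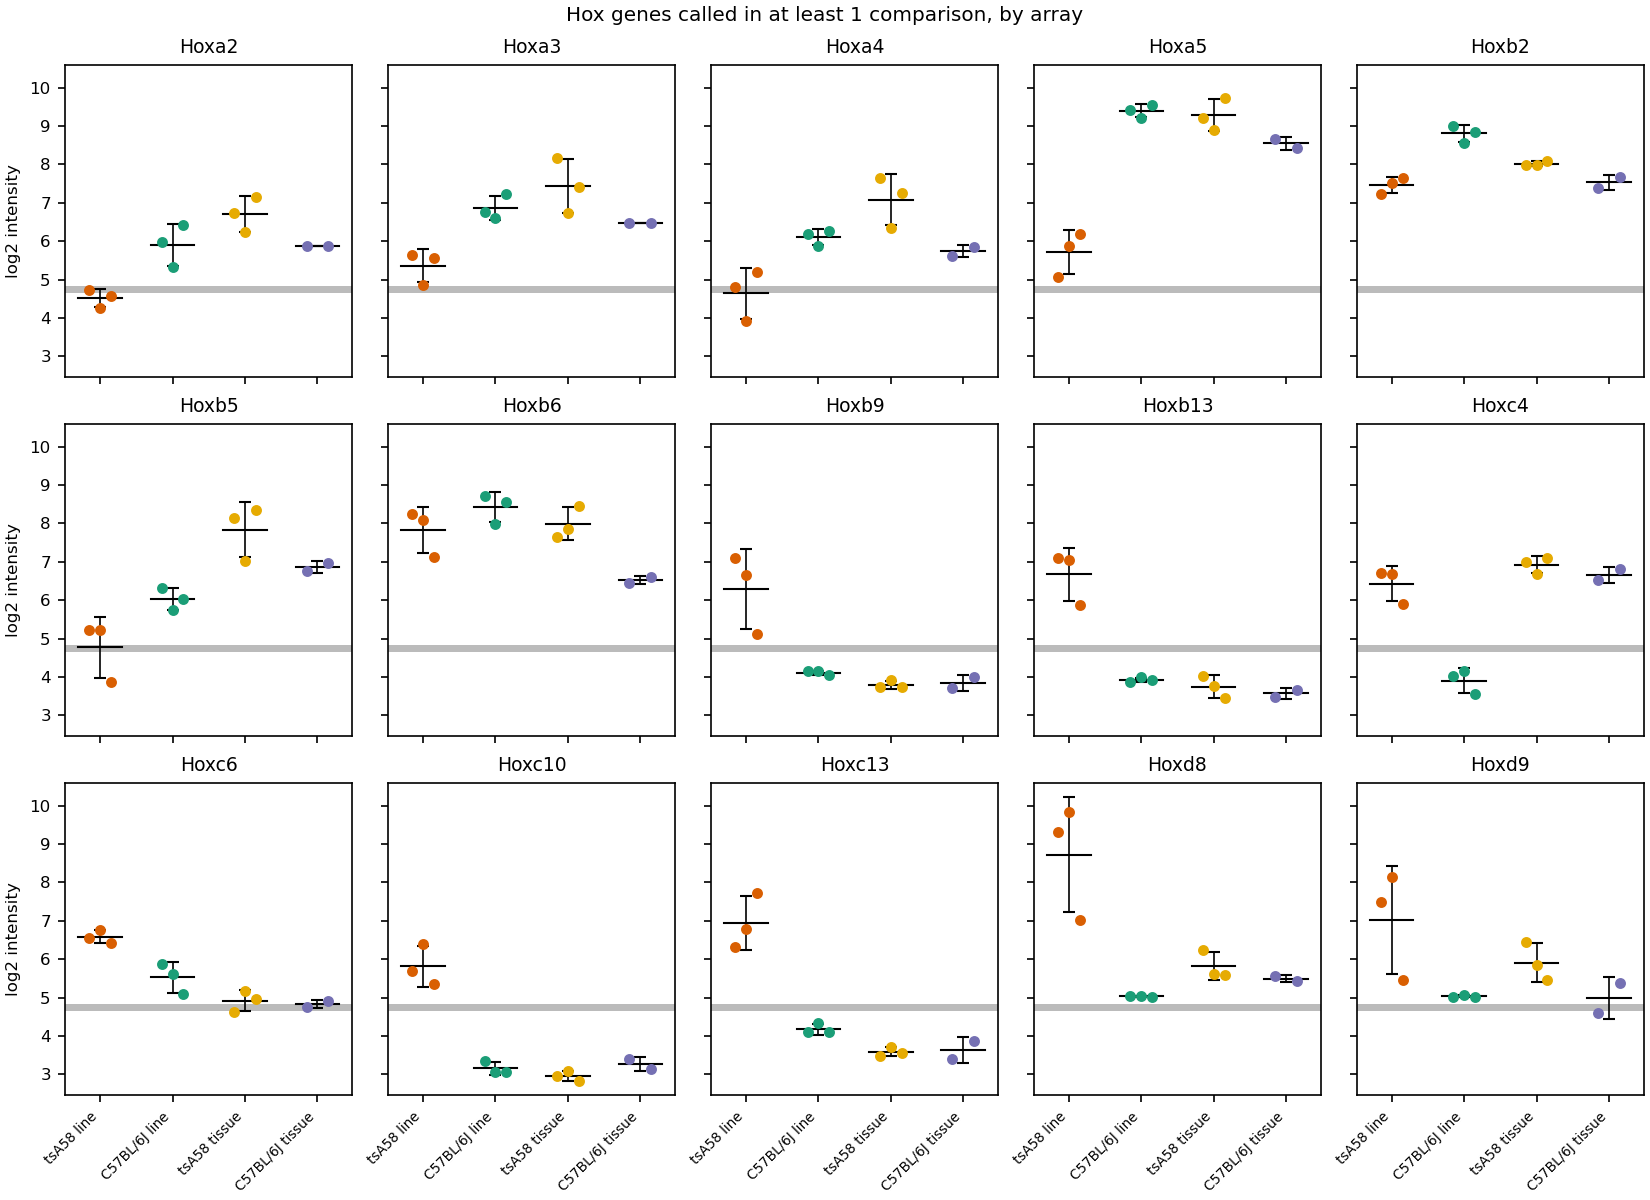
Log2 intensity of each array (points) for the 15 Hox genes called in at least 1 comparison, by group. Lines and bars show mean and SD, and the grey band spans the array medians from 4.66 to 4.84. For Hoxb9, Hoxb13, Hoxc10 and Hoxc13 the arrays of the tsA58 line are the only ones above the band.

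In the C57BL/6J strain fewer Hox genes passed the test between line and tissue, from 5 arrays in place of 6. Hoxb2 and Hoxb6 were higher in that line and Hoxc4 was lower, which made 3 of 21 genes called, where 34.1% of all tested genes were called (17.5% higher and 16.6% lower). With no filter 3 of 33 were called, beside 24.9% of all genes (12.7% higher and 12.3% lower). The arrays did not overlap for 15 of 21 genes and for 75.2% of all tested genes. Spearman's rank correlation with paralogue number was 0.07 over the 33 genes, as a description, and the median change was 0.11, against 0.10 over all genes. The 2 line-tissue comparisons had 0 called genes in common.

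Hoxc4, which in the mouse is needed for the oesophageal muscle and the neck vertebrae, read 4.02, 4.15 and 3.55 in the C57BL/6J line, against 6.52 and 6.81 in C57BL/6J tissue (-2.76 ± 0.29, adjusted p = 3.08e-05). It was below the array median on all 3 arrays of that line and above it on the other 8 arrays. The tsA58 line read 6.70, 6.67 and 5.90, against 6.99, 6.67 and 7.11 in tsA58 tissue, a difference of -0.50 ± 0.26 that was not called (adjusted p = 0.134). With arrays centred on the hybridisation controls the call in the C57BL/6J line was lost (-1.52, adjusted p = 0.0599).

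Hoxb6, expressed in trunk mesoderm, read 8.72, 7.97 and 8.55 in the C57BL/6J line, against 6.45 and 6.60 in C57BL/6J tissue (1.89 ± 0.37, adjusted p = 0.0017). Hoxb2, a regulator of hindbrain neurons, read 9.01, 8.57 and 8.85 in the line, against 7.39 and 7.67 in tissue (1.27 ± 0.20, adjusted p = 0.000519). Neither gene overlapped between the groups. Under cyclic loess Hoxb2 changed by 0.95, under 2-fold. Hoxb6 read 8.23, 8.10 and 7.13 in the tsA58 line, against 7.63, 7.86 and 8.46 in tsA58 tissue. Hoxb2 read 7.22, 7.51 and 7.64 in the tsA58 line, against 7.99, 7.98 and 8.09 in tsA58 tissue, and neither gene was called there.

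Set directly against each other, the lines differed in 13 of 21 Hox genes, where 14.2% of all tested genes were called (8.38% higher and 5.77% lower). With no filter 13 of 33 were called (8 higher and 5 lower in the tsA58 line), beside 9.92% of all genes (5.84% higher and 4.08% lower). The lines did not overlap for 15 of 21 genes and for 40.3% of all tested genes. Cluster a had 4 lower and 0 higher of 9, cluster b 1 lower and 2 higher of 9, cluster c 4 higher and 0 lower of 7, and cluster d 2 higher and 0 lower of 8. All 5 called genes among paralogues 9 to 13 were higher in the tsA58 line and all 3 among paralogues 1 to 3 were lower, of which Hoxa2 and Hoxb2 turned sign under centring on hybridisation controls, as did Hoxa4. The same rank correlation with paralogue number was 0.41 over the 33 genes, as a description, and the median change was -0.07, the same as over all genes. Of paralogues 9 to 13 only 2 of 14 were raised in the C57BL/6J line, so here too most had little room to be called lower. This comparison uses the same tsA58 line arrays as the one with tsA58 tissue, so the values are not a second measurement of that line.

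Lower in the tsA58 line than in the C57BL/6J line, besides Hoxa5, were Hoxa2 (-1.39 ± 0.30, adjusted p = 0.0082), Hoxa3 (-1.51 ± 0.34, adjusted p = 0.0105), Hoxa4 (-1.47 ± 0.37, adjusted p = 0.0167) and Hoxb2 (-1.35 ± 0.18, adjusted p = 0.000628). With arrays centred on the hybridisation controls, where the median of all genes moved to 1.45, Hoxa2, Hoxa4 and Hoxb2 turned to 0.10, 0.0191 and 0.14, and Hoxa3 came to -0.02. Their direction therefore depends on the scaling. The C57BL/6J line read 5.98, 5.32 and 6.41 for Hoxa2, 6.76, 6.62 and 7.22 for Hoxa3, and 6.18, 5.88 and 6.27 for Hoxa4. Hoxa4 also lost its call without C57BL/6J line replicate 1 or 3 or tsA58 line replicate 2 (adjusted p = 0.0614, 0.0548 and 0.0552), and with all probe sets averaged it fell by 0.89, under 2-fold.

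Higher in the tsA58 line were Hoxd8 (3.69 ± 0.56, adjusted p = 0.00135), Hoxc13 (2.76 ± 0.31), Hoxb13 (2.75 ± 0.30), Hoxc10 (2.66 ± 0.25), Hoxc4 (2.52 ± 0.26), Hoxb9 (2.17 ± 0.40), Hoxd9 and Hoxc6 (1.05 ± 0.23). Hoxd8 differed by a factor of 12.9. Hoxd9, which lies next to Hoxd8 in the cluster and patterns the lower spine and forelimb, read 7.49, 8.14 and 5.45 in the tsA58 line, against 5.02, 5.07 and 5.03 for the C57BL/6J line (1.99 ± 0.57, adjusted p = 0.0287). In the tissues it read 6.45, 5.84 and 5.45 (tsA58), and 4.61 and 5.37 (C57BL/6J). The third array of the tsA58 line was level with the lowest of its tissue, and without it the difference between lines was 2.78. The Hoxd9 call was lost without any 1 array of the C57BL/6J line (adjusted p = 0.0848, 0.0732 and 0.071) and without tsA58 line replicate 1 or 2 (0.103 and 0.0966), and with only the 2 lines fitted (0.0647). For Hoxc6 the difference fell under 2-fold without C57BL/6J line replicate 3 (0.83) or tsA58 line replicate 2 (0.97), under quantile normalisation (0.87) and with all probe sets averaged (0.80). Mesothelium markers, all 4 above the array median in every group, averaged 7.68 to 10.76 per tsA58 line array and 10.65 to 10.98 per C57BL/6J line array, and their part in these differences was not tested.

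**Figure D3:**
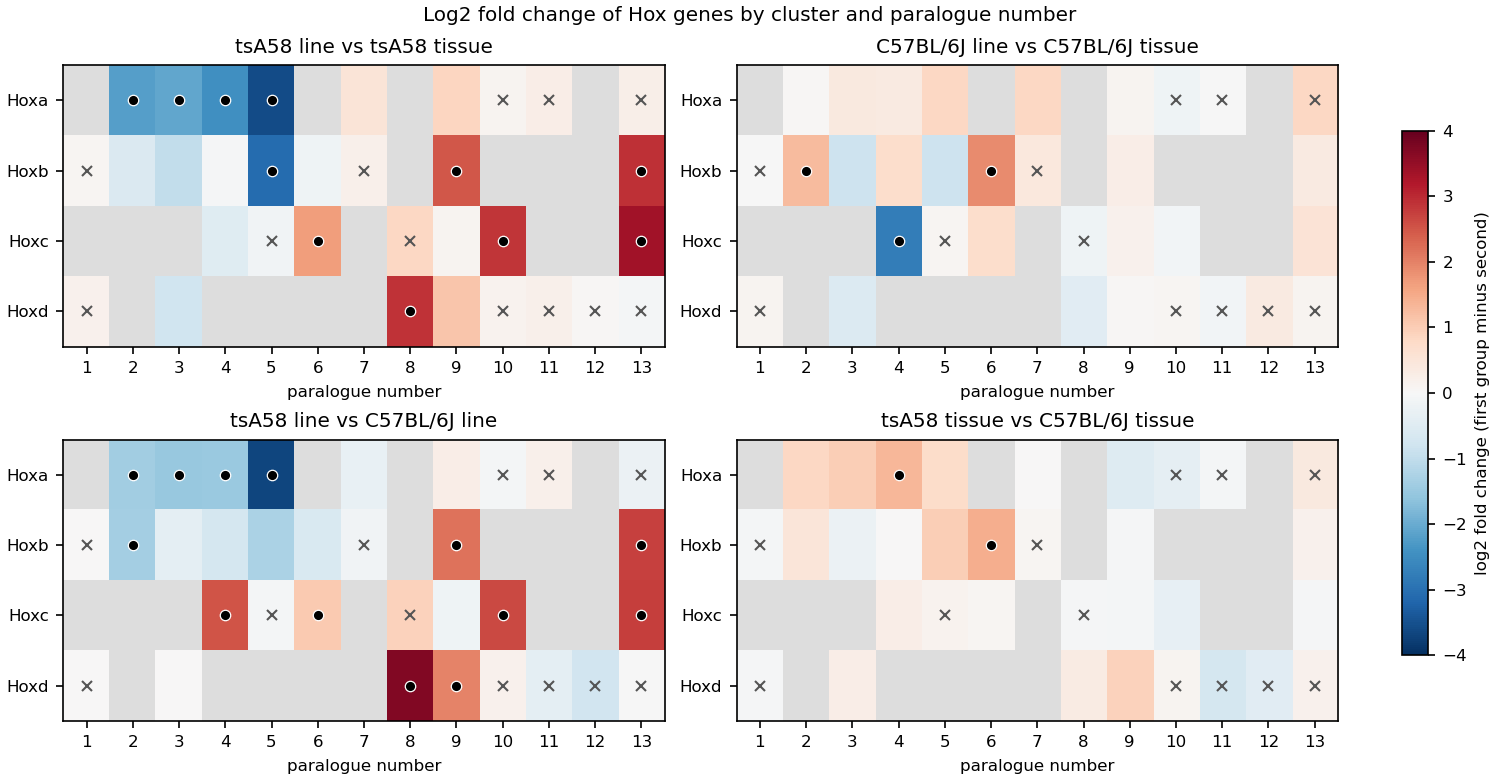
Log2 fold change (colour, first-named group minus second) of the 33 Hox genes by cluster (rows) and paralogue number (columns) in 4 comparisons. Black dots mark called genes, crosses genes left out by the filter, and grey cells numbers with no gene analysed here. In both comparisons of the tsA58 line the called genes of paralogues 1 to 3 are lower and those of paralogues 9 to 13 higher, with Hoxa2 and Hoxb2 between the lines turning sign under centring on the hybridisation controls. Few genes of paralogues 9 to 13 were raised in the second-named groups, which left little room for a lower call.

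Between the tissues of the 2 strains 2 Hox genes were called, both higher in tsA58 tissue. Hoxb6 read 7.63, 7.86 and 8.46 in tsA58 tissue, against 6.45 and 6.60 in C57BL/6J tissue (1.46 ± 0.37, adjusted p = 0.0191). Hoxa4 read 7.64, 6.34 and 7.25 in tsA58 tissue, against 5.63 and 5.86 in C57BL/6J tissue (1.34 ± 0.41, adjusted p = 0.044). These were 2 of 21 genes, where 12.8% of all tested genes were called (9.56% higher and 3.21% lower), while a fit with no filter called Hoxb6 of the 33, beside 9.03% of all genes (6.73% higher and 2.3% lower). The tissues did not overlap for 11 of 21 genes and for 54.3% of all tested genes. Both calls ended without either array of C57BL/6J tissue (adjusted p = 0.0957 to 0.221) and without tsA58 tissue replicate 3 (0.058 for Hoxb6 and 0.108 for Hoxa4), and that of Hoxa4 also without tsA58 tissue replicate 1 (0.111) and under 7 other alternatives, no filter and quantile normalisation among them (0.0553 and 0.0573). Over the 33 genes the median difference was 0.08, against 0.06 over all genes.

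Whether the line-tissue change itself differed between strains was tested as an interaction in the same model. It was called for 13 of 21 genes, where 20.3% of all tested genes were called (7.3% higher and 13% lower), and for 13 of 33 with no filter (6 higher and 7 lower), beside 14.2% of all genes (5.02% higher and 9.2% lower). Hoxa5 had the largest difference, with the change in the tsA58 line lower by -4.41 ± 0.44 (adjusted p = 0.000277), and Hoxd8 the largest in the other direction (3.36 ± 0.84, adjusted p = 0.0178). A second Hoxa5 probe set, fitted on its own, gave -0.94 ± 0.33 and was not called (adjusted p = 0.0627). That of Hoxd8 was called (2.38 ± 0.63, adjusted p = 0.0205). The called genes included Hoxc4 (2.26 ± 0.38, adjusted p = 0.00333), whose fall was in the C57BL/6J line, and Hoxb6 (-2.05 ± 0.49, adjusted p = 0.0144). For Hoxb6 the lines differed by -0.59 ± 0.33 and were not called (adjusted p = 0.217), while the tissues were (1.46 ± 0.37). Its lowest group was C57BL/6J tissue, with 2 arrays. Cluster a had 4 lower and 0 higher of 9, and cluster c 3 higher and 0 lower of 7.

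Some Hox genes have several probe sets, and these did not always move alike. Of the 33 genes, 11 had more than 1, and 8 further probe sets passed the filter. Hoxa9 showed the widest gap. Its brighter probe set read 6.12, 6.33 and 6.54 in the tsA58 line and 5.36 to 6.35 elsewhere and was not called (0.86 ± 0.18 against tissue). Its second read 7.57, 8.34 and 6.02 in the tsA58 line, 2.82, 3.06 and 3.18 for the C57BL/6J line, 2.76, 3.19 and 3.16 in tsA58 tissue, and 2.48 and 3.19 in C57BL/6J tissue. Fitted on its own among 26903 probe sets, that second probe set was higher in the tsA58 line by 4.27 ± 0.47 against tissue (adjusted p = 4.23e-05) and by 4.29 ± 0.47 against the C57BL/6J line (adjusted p = 0.000156). Its strain difference was 4.09 ± 0.70 (adjusted p = 0.00277). Of all probe sets, 30.5% were called between the tsA58 line and its tissue, 34.1% between the C57BL/6J line and its tissue, 14.2% between the lines, 15.9% between the tissues and 22.3% for the strain difference. The rule for choosing probe sets therefore decided whether Hoxa9, a rear-trunk and blood progenitor factor, counted among the genes higher in that line. It also decided whether Hoxa9 counted as raised in the C57BL/6J line and C57BL/6J tissue.

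For Hoxd8 and Hoxc6 the second probe sets were called the same way. The second Hoxd8 probe set was higher in the tsA58 line by 1.99 ± 0.42 against tissue and by 2.91 ± 0.42 against the C57BL/6J line, and that of Hoxc6 by 1.75 ± 0.23 and 1.16 ± 0.23. For Hoxa5 the second probe set was lower by -0.86 ± 0.22 and -0.96 ± 0.22, under 2-fold (adjusted p = 0.00902 and 0.0113), so the sign was shared and the size was not. Hoxa3's second probe set gave -0.45 ± 0.40 and -0.84 ± 0.40 and was not called. The second Hoxb4 probe set was higher in the C57BL/6J line than in its tissue by 1.14 ± 0.26 (adjusted p = 0.00407), where the brighter one gave 0.70 ± 0.23. Hoxc5, a middle paralogue whose brightest probe set was below the array median throughout, had another that read 3.60, 3.91 and 3.54 in the tsA58 line, against 4.73, 5.25 and 5.35 in tsA58 tissue (-1.43 ± 0.22, adjusted p = 0.000473). Of those tissue arrays 2 exceeded the array median, so the Hoxc5 call too depended on the probe set read.

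**Figure D4:**
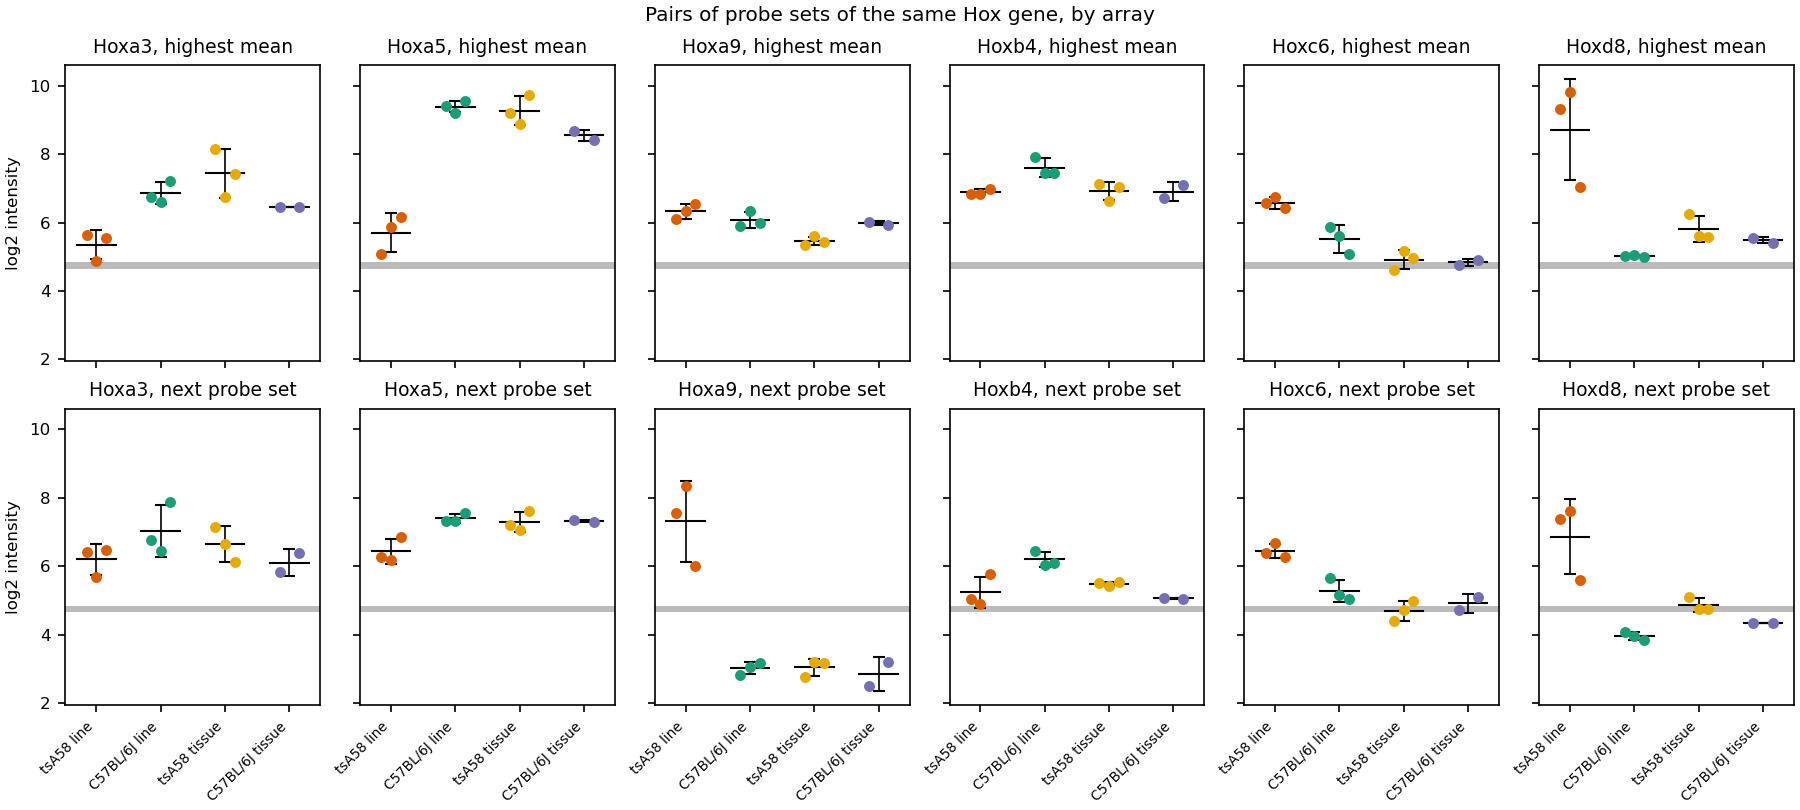
Log2 intensity of each array (points) for the probe set used (top row) and the next brightest one (bottom row) of 6 Hox genes, by group. Lines and bars show mean and SD, and the grey band spans the array medians. For Hoxa9 the lower panel separates the tsA58 line (6.02 to 8.34) from all other arrays (2.48 to 3.19), which the upper panel does not.

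Hox proteins bind DNA together with TALE homeodomain cofactors of the Pbx, Meis and Pknox families. Of 7 tested cofactors, 4 were lower and 0 higher in the tsA58 line than in tsA58 tissue, with a median of -1.28, where 18.9% of all tested genes were lower and 12.8% higher. Meis1 read 4.80 to 5.41 in the tsA58 line, against 8.37 to 9.37 in tsA58 tissue (-3.91 ± 0.27, adjusted p = 1.23e-06). It was lower than in the C57BL/6J line too, with means of 5.03 ± 0.33 (tsA58 line) and 7.04 ± 0.23 (C57BL/6J line) (SD, n = 3 each, limma adjusted p = 0.000619). Pbx3 was lower than in tissue in both lines, by -2.08 ± 0.33 (tsA58) and by -2.71 ± 0.37 (C57BL/6J). In the C57BL/6J line 1 cofactor was higher than in tissue, Pbx2 (1.98 ± 0.26), and 3 were lower, where 17.5% of all tested genes were higher and 16.6% lower.

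Retinoic acid sets Hox boundaries in the embryo. Aldh1a2, the enzyme that makes it in mesenchyme, read 3.42 to 3.88 in the tsA58 line, against 10.05 to 10.76 in tsA58 tissue (-6.63 ± 0.31, adjusted p = 5.21e-08). In the C57BL/6J line it read 3.90 to 5.09, against 9.08 to 9.22 in tissue (-4.77 ± 0.34, adjusted p = 2.89e-06). The receptor Rarb was lower than in tissue in both lines (-3.48 ± 0.21 in tsA58 and -2.71 ± 0.23 in C57BL/6J). Dhrs3, a retinaldehyde reductase, was lower in the tsA58 line than in tsA58 tissue (-3.69 ± 0.17). Crabp2, which carries retinoic acid to its receptor, was at 3.73 to 4.59 in the tsA58 line, against 9.01 to 9.24 in the C57BL/6J line (-4.95 ± 0.54, adjusted p = 0.000166). In C57BL/6J tissue Crabp2 read 3.80 and 6.53, below its line. Aldh1a1, of the same pathway, was high in both lines. It read 9.75 to 11.19 in the tsA58 line, against 8.59 to 10.55 in tsA58 tissue. In the C57BL/6J line it read 11.54 to 12.05, against 9.72 and 9.90 in C57BL/6J tissue. Of 17 tested genes of the pathway, 0 were higher and 4 lower in the tsA58 line than in tsA58 tissue, and 4 were higher and 2 lower in the C57BL/6J line than in its tissue. Of all tested genes 31.7% were called in the tsA58 comparison and 34.1% in the C57BL/6J one, so these counts were close to or below the background.

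Polycomb proteins keep Hox genes silent, and Trithorax proteins keep them active. Of 21 tested Polycomb genes, 6 were higher and 2 lower in the tsA58 line than in tsA58 tissue. Of all tested genes 12.8% were higher and 18.9% lower, 31.7% in either direction. The called Polycomb genes included Ezh2, the H3K27 methyltransferase (1.68 ± 0.48, adjusted p = 0.0143), Cbx2 (1.46 ± 0.19) and Jarid2 (-1.81 ± 0.25). Between the lines 2 Polycomb genes were higher and 2 lower in the tsA58 line, with Bmi1 (1.38 ± 0.38), Eed (1.23 ± 0.23) and Jarid2 (-1.12 ± 0.25) among them. Of all tested genes 14.2% were called there. Of 11 Trithorax and H3K27 demethylase genes, 2 were higher and 0 lower in the tsA58 line than in tsA58 tissue, Kdm6b (1.33 ± 0.37) and Rbbp5 (1.12 ± 0.27), beside 12.8% higher and 18.9% lower of all tested genes.

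Region-defining transcription factors of the stomach were compared as a second positional readout. Barx1, which marks stomach mesenchyme, read 4.16 to 4.25 in the tsA58 line, against 10.08 to 10.71 in tsA58 tissue (-6.28 ± 0.20, adjusted p = 4.28e-09), and 4.66 to 5.17 in the C57BL/6J line, against 9.05 to 9.14 in C57BL/6J tissue (-4.19 ± 0.23, adjusted p = 4.03e-07). Isl1 was lower than in tissue by -4.54 ± 0.36 (tsA58) and by -3.99 ± 0.40 (C57BL/6J). Gata6 went the other way. It read 8.08 to 9.59 in the tsA58 line, against 7.33 to 7.92 in tsA58 tissue. In the C57BL/6J line it read 9.75 to 10.46, against 8.13 and 8.20 in C57BL/6J tissue. Of 11 tested genes, 6 were lower and 2 higher in the tsA58 line than in tsA58 tissue, and 5 were lower and 2 higher in the C57BL/6J line than in its tissue, where 31.7% (tsA58) and 34.1% (C57BL/6J) of all tested genes were called. Marker lists of neurons, epithelium and leukocytes were high in the tissues and mostly near or below the array median in the lines, and their part was not tested.

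Genes beside the Hox clusters were read for comparison. Lnpk, which borders cluster d, was higher in the tsA58 line than in tsA58 tissue (1.94 ± 0.34, adjusted p = 0.000987) and than in the C57BL/6J line (1.79 ± 0.34, adjusted p = 0.00434). Skap2, which borders cluster a, was lower in the tsA58 line than in the C57BL/6J line (-1.32 ± 0.24, adjusted p = 0.00324). It read 8.92, 8.62 and 9.49 in the tsA58 line, overlapping tsA58 tissue (8.96, 9.32 and 9.38). In the C57BL/6J line it read 10.34, 10.13 and 10.52, above C57BL/6J tissue (8.80 and 8.57). Of 8 tested neighbour and ParaHox genes, these 2 were the ones called between the lines, beside 14.2% of all tested genes. Against tissue, 2 were higher and 2 lower in the tsA58 line, beside 12.8% higher and 18.9% lower of all tested genes. In the C57BL/6J line 1 was higher and 0 lower than in its tissue, beside 17.5% higher and 16.6% lower.

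**Figure D5:**
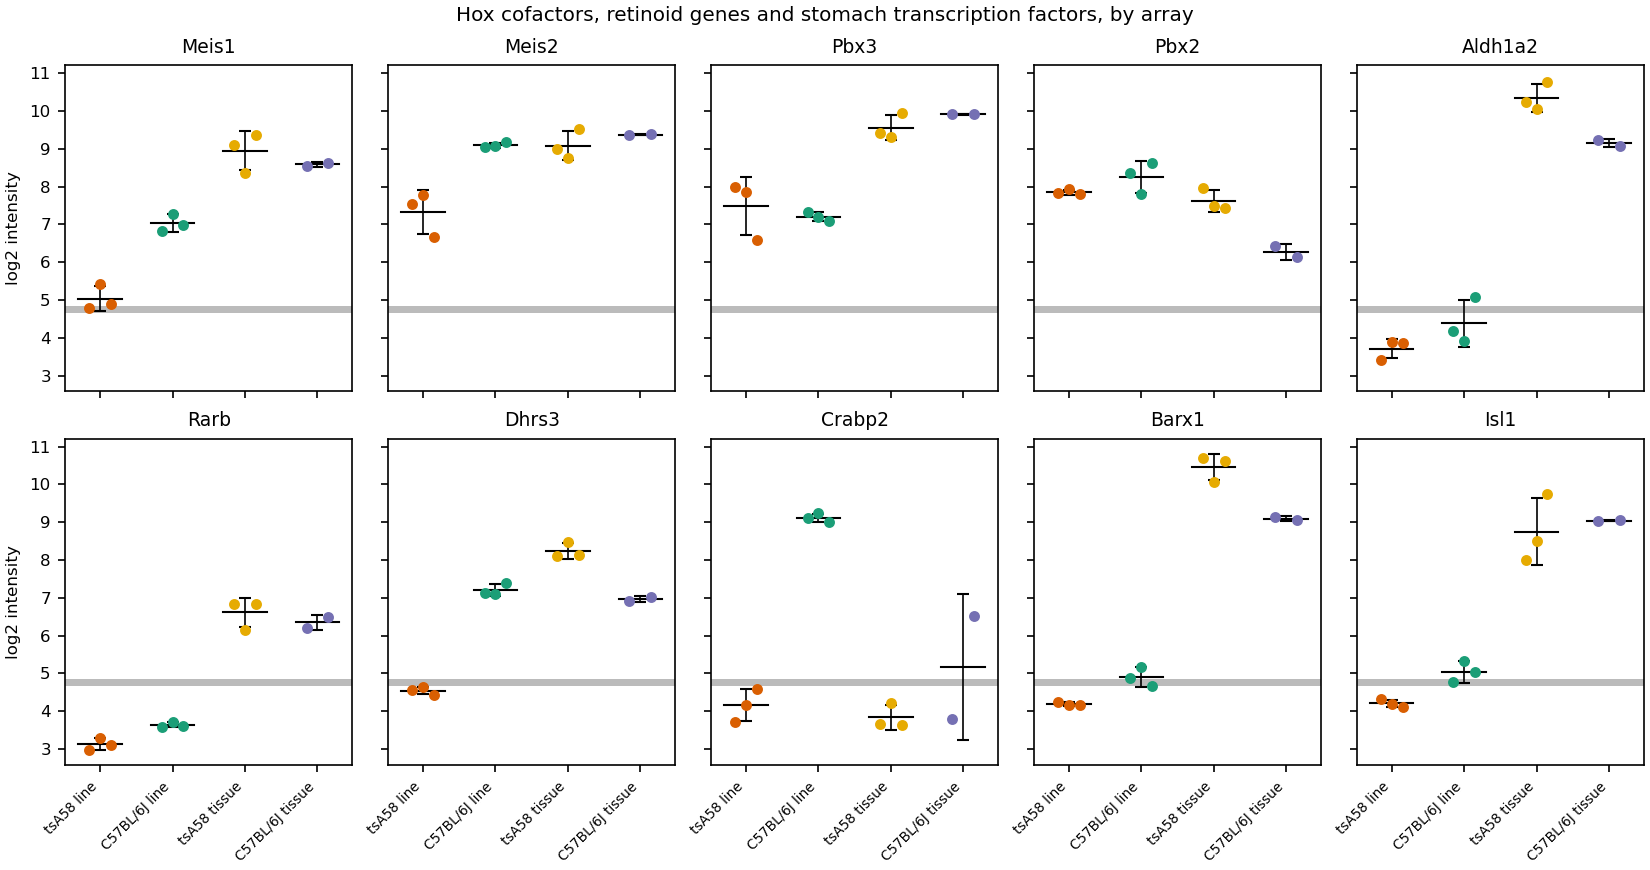
Log2 intensity of each array (points) for Hox cofactors (Meis1, Meis2, Pbx3, Pbx2), retinoid genes (Aldh1a2, Rarb, Dhrs3, Crabp2) and stomach transcription factors (Barx1, Isl1), by group. Lines and bars show mean and SD, and the grey band spans the array medians. Aldh1a2 and Barx1 lie between 3.42 and 5.17 in both lines and above 9 in both tissues.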

How the data were processed

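Transcript levels of 11 samples were measured with 1 Affymetrix mouse genome array each, from about 50 ng of total RNA amplified in 2 rounds, per the labels' protocols. The authors deposited a log2 intensity for each probe set. RMA is named in the submitters' processing notes, with the version not given in the sources used here. RMA scales arrays to each other, so changes are relative to the bulk of transcripts, though the deposited array medians still differ slightly. No detection calls were used, and the number of arrays limits the precision.

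Of 45101 probe sets, 34945 carried 1 symbol, 932 several and 9160 none, and 64 are controls. Names came from the platform annotation, and only single-symbol probe sets were used. Groups came from titles and strain labels. Tests used limma 3.58.1 (lmFit and eBayes) in R 4.3.3, with 7 residual and 3.49 prior degrees of freedom, adjusted over all tested genes, and the script was tested on simulated data. Tables and figures used Python 3.11.15, pandas 2.3.3, scipy 1.17.1 and matplotlib 3.10.9. Alternatives covered normalisation, the filter, probe set choice, the variance model, the samples fitted, each left-out array, the fold threshold and, added after seeing the data, the actin ratio as a covariate and every probe set fitted on its own. Hox genes and gene lists were chosen with earlier results of these data known. Any Hox gene may be named, and up to 3 called genes with the largest change from each list per comparison. Aldh1a1 and Gata6 are also named, as list members that were not lower in the lines. Promoter windows are RefSeq's.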

Additional observations from a re-analysis of the deposited data

Results flagged for a closer look

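The change between line and tissue differed between the strains for 13 Hox genes, by the interaction term of the limma model (change in the tsA58 line minus change in the C57BL/6J line, log2, SE, Benjamini-Hochberg adjusted p). It was lower in the tsA58 strain for Hoxa2 (-2.23 ± 0.45), Hoxa3 (-2.48 ± 0.51), Hoxa4 (-2.81 ± 0.55), Hoxa5 (-4.41 ± 0.44), Hoxb2 (-1.83 ± 0.27), Hoxb5 (-2.23 ± 0.63) and Hoxb6 (-2.05 ± 0.49), with adjusted p from 0.000277 to 0.0276. It was higher in the tsA58 strain for Hoxb9 (2.23 ± 0.60), Hoxb13 (2.57 ± 0.45), Hoxc4 (2.26 ± 0.38), Hoxc10 (2.97 ± 0.37), Hoxc13 (2.81 ± 0.46) and Hoxd8 (3.36 ± 0.84), with adjusted p from 0.000841 to 0.0237. Second probe sets were not called for Hoxa5 (-0.94 ± 0.33, adjusted p = 0.0627) and Hoxa3 (-1.38 ± 0.60, adjusted p = 0.117). That of Hoxd8 was called (2.38 ± 0.63, adjusted p = 0.0205). Second probe sets of Hoxa9, Hoxb4 and Hoxc6 were called though the brighter ones were not. C57BL/6J tissue has 2 arrays, and without 1 of them Hoxb5, Hoxb6, Hoxb9 and Hoxd8 lost their call (adjusted p = 0.0506 to 0.101). Hoxb5 also lost it under quantile normalisation (0.0578) and without C57BL/6J line replicate 1 or 3 or tsA58 tissue replicate 1 or 3 (0.0518 to 0.0683), and Hoxb9 without C57BL/6J line replicate 1 (0.0513). With centring on the hybridisation controls the call was lost for all 6 genes that were higher and for Hoxb2 and Hoxb6, with adjusted p from 0.0664 to 0.385. Group means of the actin 3' to 5' difference and of the hybridisation controls differ between the strains, though single arrays overlap, and cannot be told apart from strain.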

How the results depend on the processing

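Of 42 called results of a Hox gene in a comparison, 22 kept direction and call under every alternative fitted by gene. The other 20 lost the call under at least 1, and 3 of these turned. Fits of single probe sets are not in these counts. In those fits the second Hoxa5 probe set was not called in any comparison. Centring on the hybridisation controls accounted for 14 of the losses and turns. It moved the median change of all tested genes to 0.60 for the tsA58 line against tissue, 1.35 for the C57BL/6J line against tissue, 1.45 between the lines, 2.30 between the tissues and -0.82 for the strain difference, where the deposited scale gave medians of 0.12 (C57BL/6J line), -0.04 (lines), 0.18 (tissues) and -0.18 (strain difference). Under it the C57BL/6J line had 9 called Hox genes against its tissue (9 higher, 0 lower), the tissues 21, the strain difference 5 (0 higher, 5 lower) and the lines 11 (10 higher, 1 lower). Of all 13285 tested genes it called 5871 for the C57BL/6J line (5148 higher, 723 lower), 12185 for the tissues, 577 for the strain difference (127 higher, 450 lower) and 7678 for the lines (7582 higher, 96 lower). Between the lines under this centring, Hoxa2, Hoxa4 and Hoxb2 turned to 0.10, 0.0191 and 0.14. With no fold threshold the C57BL/6J line had 6. Between the tissues, quantile normalisation, cyclic loess, no filter, the mean of all probe sets, only the groups compared and the replicate block each left 1 called gene, and the actin covariate gave 4. Leaving out 1 array gave 11 to 13 called genes for the tsA58 line against tissue, 3 to 3 for the C57BL/6J line against tissue, 10 to 13 between the lines, 0 to 5 between the tissues (0 without either C57BL/6J tissue array or tsA58 tissue replicate 3, 1 without tsA58 tissue replicate 1, 5 without replicate 2) and 9 to 15 for the strain difference. Replicate numbers did not pair the arrays: deviations of same-numbered arrays correlated at -0.16 to 0.25 (median -0.04, 15 pairs, 1 over 0.1), and the replicate block changed no other count. With a margin of 2 log2 units over the array median, 4 genes were raised in the tsA58 line, 6 for the C57BL/6J line, 5 in tsA58 tissue and 3 in C57BL/6J tissue. The cause of these shifts was not tested. A tissue group of 2 arrays and levels near background limit what can be called.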

Other observations

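Further probe sets at the Hox clusters, named after their values were seen, are given as values. Of 2 probe sets for Hoxd3os1, an antisense RNA of cluster d, 1 stayed between 2.74 and 3.33 and the other read 6.08, 6.97 and 5.23 in the tsA58 line, 3.68, 3.34 and 3.10 for the C57BL/6J line, 5.47, 4.03 and 4.01 in tsA58 tissue, and 4.39 and 4.23 in C57BL/6J tissue. All 3 arrays of the tsA58 line exceeded the C57BL/6J line, while replicate 3 lay below 1 array of its tissue. Hoxb5os, an antisense RNA of cluster b, read 6.93, 7.82 and 6.09 in the tsA58 line, 7.27, 7.45 and 7.05 for the C57BL/6J line, 7.77, 8.01 and 8.18 in tsA58 tissue, and 9.43 and 9.28 in C57BL/6J tissue, so it was higher in C57BL/6J tissue than on all other arrays. A second Hoxa10 probe set read 4.06, 4.41 and 4.34 in the tsA58 line, against 2.40 to 2.73 on the other arrays, below the array median throughout. A probe set shared by Hoxb8 and Hoxb7 read 6.71, 6.40 and 5.34 in the tsA58 line, 5.37, 5.37 and 5.70 for the C57BL/6J line, 5.29, 5.06 and 5.37 in tsA58 tissue, and 4.87 and 4.98 in C57BL/6J tissue.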
